A study of Mus musculus with 19 samples.

Results

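The comparison described here is that of 7 mouse tumors with 8 samples of skeletal muscle. Its members were taken from the tissue type in the sample labels: all arrays labelled tumor, all 4 labelled quadriceps femoris (a thigh muscle) and all 4 labelled sternocleidomastoid (a neck muscle), which together make 15 of the 19 arrays of the series. The other 4 arrays were of aorta, a second normal tissue, and they also enter the choice of probe sets and the estimate of the spread. Tumors came from mice of genotype aP2-Cre/+;DicerFlox/- and the series describes them as angiosarcomas, malignant tumors of endothelial cells; muscles and aortas came from wild type mice, and all were on a mixed C57Bl/6 and 129X1/SvJ background. In the tumor mice the aP2 (Fabp4) promoter drives Cre recombinase, so the loxP-flanked Dicer allele is lost only in cells that use or have used that promoter, while the other Dicer allele is already null in every cell. Genotype and tissue therefore differ together between tumor and muscle and cannot be told apart. The labels state neither age nor sex, nor whether each array is a separate animal, so the p-values measure the spread between these arrays.

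Skeletal muscle fibers are packed with sarcomeres, in which myosin thick filaments pull on actin thin filaments when calcium leaves the sarcoplasmic reticulum, and they spend phosphocreatine, glycogen and fat to do so. Many enzymes and structural proteins have a copy of the gene that striated muscle uses and another that most other cells use. Angiosarcoma is made of malignant endothelial cells with irregular, leaky vessels, and such tumors commonly hold trapped blood, inflammatory cells and newly laid matrix. Dicer cuts precursor microRNAs into mature microRNAs. Comparing such a tumor with muscle asks which genes separate a proliferating vascular tissue from a contractile tissue of a normal mouse. In bulk tissue, fewer cells of a type and less RNA per cell cannot be told apart.

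Expression was given as log2 intensity per probe set, and the 22180 genes tested were each represented by 1 probe set. The tumor-minus-muscle difference of each gene was the tumor mean minus the average of both muscle means, fitted with limma across all 19 arrays, and a gene was called when its Benjamini-Hochberg adjusted p over all genes was under 0.05. The array medians ran from 5.35 to 5.48, and no 2 arrays held identical values. The first principal component of the 15 arrays held 70.6% of the variance and put the tumors at 57.1 to 84.5 and the muscles at -66.1 to -53.0. The median SD of a gene within a group was 0.21 in tumors, 0.14 in quadriceps and 0.16 in sternocleidomastoid, so the tumors varied most. A group mean under 5.35, the lowest array median, is called dim below; a difference from or into that range may be understated, also for genes where it is not stated again.

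Dicer1, the targeted gene, ran from 8.17 to 8.8 in tumors (median 8.62) against 8.29 to 8.91 in muscles (median 8.57). The groups overlapped, and the difference of -0.06 ± 0.1 (SE) was not called (limma, adjusted p = 0.629). Where this probe set lies relative to the floxed part is not given, so it does not check the deletion. Fabp4, whose promoter drives the Cre and which encodes a fatty acid carrier of capillary endothelium and adipocytes, stood at a median of 11.8 in tumors (9.78 to 12.7) and 11.91 in muscles (11.35 to 12.47). It was not called either, at -0.16 ± 0.32 (SE) (limma, adjusted p = 0.713).

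Tumor and muscle differed in many genes. Of all genes tested, 5617 were higher in tumor (25.3%) and 5691 were lower (25.7%), 11308 in all (51.0%), and the median difference over all genes was -0.04. With each array centred on 15 housekeeping genes, whose mean was 0.16 higher in tumor, the split became 4424 higher and 9429 lower and the median of all genes moved to -0.19. Those 15 genes were not a steady reference: 4 were called higher and 7 lower. Their differences ran from -0.59 to 1.91, with a median of 0.04. Tumors lay wholly above the muscles for 3246 of the higher genes (14.6% of those tested) and wholly below them for 2815 of the lower ones (12.7%). A difference of at least 1 log2 unit, or 2-fold, was reached by 2140 higher genes (9.65%) and 1723 lower genes (7.77%). At 2 log2 units there were 474 higher genes (2.14%) and 514 lower ones (2.32%), and at 3 log2 units 83 (0.374%) and 233 (1.05%). At 4 log2 units there were 12 higher genes (0.0541%) against 114 lower ones (0.514%).

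**Figure D1:**
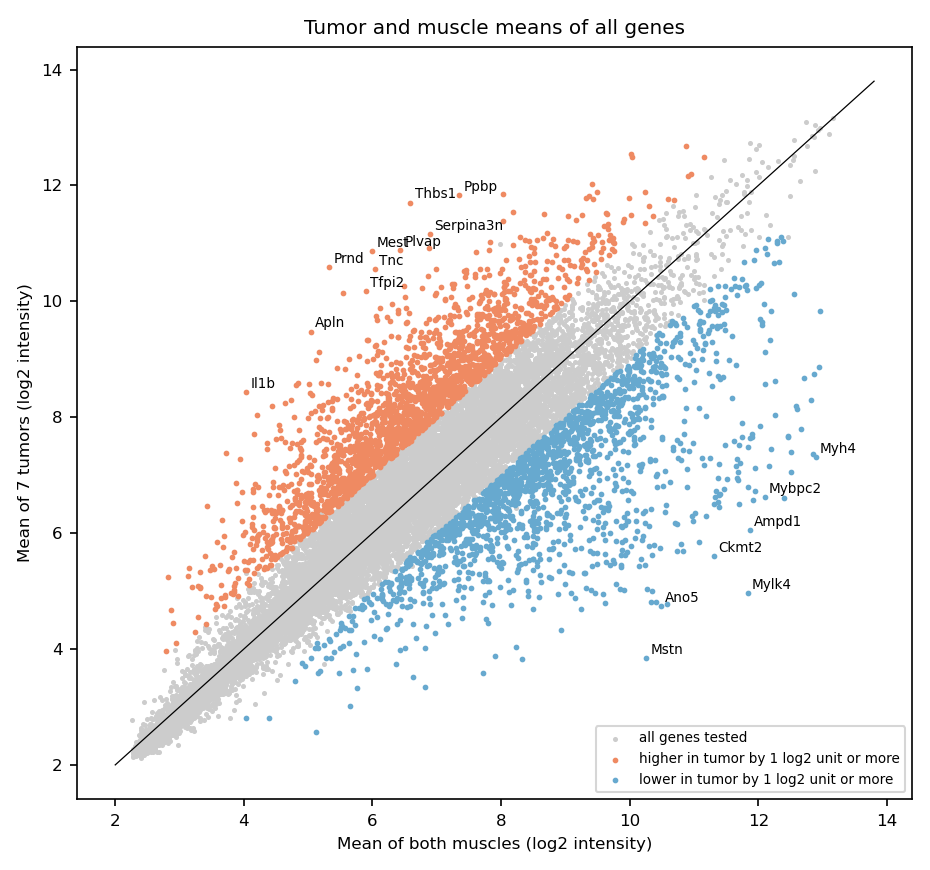
Mean log2 intensity of each of 22180 genes in 7 tumors (vertical axis) against the mean of both muscles (horizontal axis), with the line of equality; orange and blue points are the 2140 and 1723 genes called higher or lower by at least 1 log2 unit, and 17 of the genes with the largest differences are labelled. At 4 log2 units from the line there are 114 genes below it and 12 above it.

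The genes that fell furthest were those of the muscle fiber. Mylk4, a kinase of the myosin light chain kinase family, measured 4.4 to 5.76 in the tumors (median 4.89) and 11.38 to 12.16 in the muscles (median 11.93). No tumor came near a muscle, and the difference was -6.86 ± 0.17 (SE), or 116-fold lower (limma, adjusted p = 6.8e-16). Mstn, which encodes myostatin, the secreted brake on muscle growth, ran from 3.45 to 4.8 in tumors (median 3.65) against 9.72 to 10.87 in muscles (median 10.19). It was 85.1-fold lower (-6.41 ± 0.22 (SE); limma, adjusted p = 2.33e-14), and tumor 2 was the highest tumor, at 4.8. The tumor means of both genes were dim. The other 10 largest decreases among genes without overlap between the groups ran from -5.82 ± 0.34 (SE) to -5.48 ± 0.57 (SE) and were, in order, Ampd1 (muscle AMP deaminase), Ppp1r3a (which targets phosphatase to glycogen), Myoz1 (a Z-disc protein), Ano5 (a membrane repair protein), Ckmt2 (mitochondrial creatine kinase), Asb15, Myh4 (the fastest myosin heavy chain), Mlf1, Pvalb (parvalbumin, a calcium buffer of fast fibers) and Mybpc2 (fast myosin binding protein C).

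Contractile filaments of fast fibers were lower in tumor throughout: all 14 members of the fast sarcomere list fell, with a median difference of -4.68, and in 13 of them no tumor reached a muscle. Myh4 stood at a median of 8.04 in tumors (4.26 to 10.55) and 12.89 in muscles (12.8 to 12.97). Its tumor SD was 2.8, and the difference was -5.59 ± 0.83 (SE) (limma, adjusted p = 1.1e-05). Myoz1 measured 4.61 to 8.2 in the tumors (median 7.27) and 12.22 to 12.51 in the muscles (median 12.43), and its difference was -5.79 ± 0.51 (SE) (limma, adjusted p = 9.89e-09). The list mean lay between 11.74 and 12.08 in every muscle but spread from 5.41 in tumor 5 to 9.5 in tumor 2, with 5.74, 6.5, 7.97, 8.16 and 8.72 in tumors 6, 3, 4, 1 and 7. The aortas, at 6.13 to 7.54, sat within the tumors' range, and no member was higher in tumor than in aorta by limma. Whether muscle fibers left in some tumor samples take part in this spread was not tested.

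Slow-fiber genes were less uniform, with a median of -0.18. Of 11, 4 were lower and 1 higher, beside 25.7% and 25.3% of all genes. Mybpc1, slow myosin binding protein C, ran from 4.72 to 10.64 in tumors (median 7.89) against 10.89 to 12.08 in muscles (median 11.81); its difference was -4.18 ± 0.72 (SE) (limma, adjusted p = 6.27e-05). Actn2, an alpha actinin of the Z-disc, differed by -3.95 ± 0.57 (SE) (limma, adjusted p = 7.86e-06) and Myoz2 by -3.26 ± 0.64 (SE) (limma, adjusted p = 0.00022), both with overlap between the groups. Tpm3, a tropomyosin that is also made outside muscle, went the other way and stood at a median of 9.54 in tumors (8.9 to 9.87) and 7.46 in muscles (7.3 to 7.74). Its increase was 2.05 ± 0.13 (SE) (limma, adjusted p = 1.71e-10), and a second Tpm3 probe set gave 0.72 ± 0.21 (SE). The slow myosin genes Myh7 and Myl2 and the slow troponin gene Tnnt1 were not called, at -0.05, -0.01 and -0.44.

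Scaffold and Z-disc genes fell in 28 of 29 cases (median -3.82; no overlap in 20). Myom2, a myomesin of the M-band, measured 4.62 to 7.52 in the tumors (median 6.15) and 10.81 to 11.48 in the muscles (median 11.05), a difference of -5.22 ± 0.34 (SE) (limma, adjusted p = 1.44e-10). Tcap, the titin cap, fell by 4.82 (limma, adjusted p = 1.26e-09), Myot (myotilin) by 4.79 (limma, adjusted p = 8.64e-06) and Tmod4 (muscle tropomodulin) by 4.64 (limma, adjusted p = 5.65e-10). Acta1, skeletal alpha actin, ran from 6.62 to 12.31 in tumors (median 10.61) against 12.87 to 12.99 in muscles (median 12.96). The tumors covered a wide range, and the difference was -3.13 ± 0.8 (SE) (limma, adjusted p = 0.00264). Obsl1, at -0.25, was the member not called.

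Excitation-contraction coupling, the machinery that turns a membrane signal into calcium release, fell in 18 of 19 genes with a median of -4.25. Pvalb stood at a median of 8.49 in tumors (5.19 to 9.71) and 12.83 in muscles (12.69 to 12.95). Its difference was -5.48 ± 0.59 (SE) (limma, adjusted p = 1.51e-07). Casq1, the calcium store protein of fast fibers, fell by 5.45 (limma, adjusted p = 9.61e-11), Clcn1, the muscle chloride channel, by 5.35 to a dim level (limma, adjusted p = 8.68e-16), and Trdn, triadin, by 5.21 (limma, adjusted p = 1.6e-07). The release channel Ryr1 and the voltage sensor Cacna1s differed by -5.0 and -4.7. Sln, sarcolipin, was the exception, at 0.20 and not called.

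Energy supply followed the same course. In the list of phosphagen, glycogen and muscle glycolysis genes 19 of 20 fell (median -4.03). Ampd1 measured 4.78 to 7.17 in the tumors (median 6.4) and 11.4 to 12.33 in the muscles (median 11.83), a difference of -5.82 ± 0.34 (SE) (limma, adjusted p = 3.28e-11). Ppp1r3a fell by 5.8 (limma, adjusted p = 1.1e-10), Ckmt2 by 5.71 (limma, adjusted p = 2.23e-10) and Pgam2, muscle phosphoglycerate mutase, by 4.99 (limma, adjusted p = 1.11e-09). Ckm, the cytosolic muscle creatine kinase, ran from 5.51 to 10.87 in tumors (median 9.07) against 12.64 to 12.93 in muscles (median 12.86), and its difference was -4.53 ± 0.61 (SE) (limma, adjusted p = 3.23e-06). A second Ckm probe set gave -2.78 ± 0.15 (SE). Pgm2, a phosphoglucomutase, was the member that rose, by 2.56.

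Mitochondrial genes fell by less and more evenly. All 40 oxidative phosphorylation genes were lower, with a median of -1.5 and a range of -2.51 to -0.34, and all 29 genes of fatty acid oxidation and the TCA cycle were lower, with a median of -1.42. Cox5a, a subunit of cytochrome oxidase, stood at a median of 7.77 in tumors (7.27 to 8.68) and 10.36 in muscles (10.11 to 10.49). The groups were well apart, at -2.51 ± 0.15 (SE) (limma, adjusted p = 5.59e-11). Ndufs1 (complex I), Sdhd (complex II) and Cyc1 (complex III) differed by -2.05 ± 0.16 (SE), -2.04 ± 0.13 (SE) and -2.0 ± 0.18 (SE) (limma, adjusted p = 1.52e-09, 1.39e-10 and 1.3e-08). Idh3a, of the TCA cycle, measured 8.06 to 10.54 in the tumors (median 8.25) and 10.96 to 11.89 in the muscles (median 11.34), a difference of -2.67 ± 0.3 (SE) (limma, adjusted p = 2.8e-07); Sucla2 and Suclg1, of succinyl-CoA ligase, fell by 2.11 and 2.06, and Eci1, of fat oxidation, by 2.0 with overlap (limma, adjusted p = 1.04e-07, 6.82e-08 and 5.22e-05).

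Here tumor 5 stood closest to muscle rather than furthest. Its oxidative phosphorylation mean was 9.42 and that of tumor 4 was 8.94, against 8.39 to 8.60 in the other tumors and 9.95 to 10.35 in the muscles. For fatty acid oxidation and the TCA cycle tumor 5 reached 10.33, within the muscles' range of 10.23 to 10.90. The white adipocyte list mean was 10.83 in tumor 5, 9.88 in tumor 6 and 9.21 in tumor 4, against 6.25 to 7.09 in the other tumors; its part in the mitochondrial values was not tested.

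Regulators of mitochondrial content fell in 10 of 11 cases (median -1.02). Ppargc1a, the coactivator that drives mitochondrial biogenesis, ran from 4.22 to 8.31 in tumors (median 5.27) against 9.01 to 9.74 in muscles (median 9.39); it fell by 3.69 (limma, adjusted p = 2.02e-06). Perm1, a muscle regulator in the same pathway, stood at a median of 5.07 in tumors (4.75 to 5.32) and 9.41 in muscles (8.59 to 9.72). Its tumor mean was dim and its difference -4.28 ± 0.11 (SE) (limma, adjusted p = 1.04e-15). Ucp3, the muscle uncoupling protein, and Ppara, a fatty acid receptor, fell by 3.12 and 1.86 (limma, adjusted p = 6.55e-08 and 7.16e-06), the latter with overlap. Nrf1 rose by 0.58.

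Myogenic regulators fell in 14 of 17 cases (median -1.57). Myod1, the master myogenic factor, measured 5.63 to 7.02 in the tumors (median 6.11) and 7.57 to 8.58 in the muscles (median 7.89), a difference of -1.85 ± 0.19 (SE) (limma, adjusted p = 6.1e-08). Myf6, the myogenic factor of mature fibers, fell by 4.48 (limma, adjusted p = 1.99e-06), with tumors from 4.71 to 10.15. Rbm24, a muscle splicing factor, fell by 4.3 and Eya4, a transcriptional cofactor, by 3.49 (limma, adjusted p = 8.8e-11 and 2.72e-10). Pax7, the satellite cell factor, ran from 5.55 to 6.36 in tumors (median 6.0) against 6.21 to 6.71 in muscles (median 6.4); the groups overlapped and it fell by 0.45 (limma, adjusted p = 0.00286). Mef2a was the gene that rose, by 0.29, while Myog and Mymk were not called.

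The membrane of the fiber and its synapse were also lower. In the dystrophin complex and related repair genes 10 of 15 fell (median -2.25): Ano5 by 5.75, Sgca (alpha sarcoglycan) by 4.81, Dtna (dystrobrevin) by 3.69 and Capn3 (muscle calpain) by 3.64 (limma, adjusted p = 5.76e-13, 1.81e-11, 3.87e-11 and 3.14e-14). Utrn, the broadly expressed relative of dystrophin, Dysf (dysferlin) and Sgce (epsilon sarcoglycan) rose by 1.53, 1.05 and 1.03. At the neuromuscular junction 9 of 10 fell (median -1.18). Chrne, the adult acetylcholine receptor subunit, stood at a median of 5.05 in tumors (4.86 to 5.07) and 8.22 in muscles (7.8 to 8.5), a difference of -3.17 ± 0.09 (SE) (limma, adjusted p = 3.22e-15). The synaptic kinase Musk, its partner Rapsn and the receptor subunit Chrna1 fell by 2.84, 2.5 and 1.78 (limma, adjusted p = 1.39e-07, 6.16e-12 and 3.39e-06), and the fetal subunit Chrng was not called, at -0.06.

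Muscle proteolysis genes fell in 9 of 11 cases (median -3.48), among them Asb11 by 4.74, Asb5 by 4.66, Trim54 by 4.08 and Asb2 by 3.98 (limma, adjusted p = 6.22e-12, 4.2e-07, 4.6e-11 and 9.65e-15). A second Trim54 probe set gave -0.53 ± 0.10 (SE). The atrophy ligases Fbxo32 and Trim63 differed by -2.95 and -3.22, while their regulators Foxo1 and Foxo3 were not called. Tendon genes, which mark tissue at the ends of a muscle, fell in 6 of 8 cases (median -1.12): Kera by 2.87, Tnmd by 1.94, Chad by 1.65 and Fmod by 1.19 (limma, adjusted p = 5.55e-07, 3.72e-06, 3.59e-05 and 0.000403). Against sternocleidomastoid alone Fmod was not called, at -0.72 (limma adjusted p = 0.0558). Tendon levels differed among the muscle arrays themselves, the list mean running from 6.18 to 8.27.

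Genes of a cell's shared machinery separated by isoform. In 29 protein families, a form abundant in muscle was paired with another form of the family; the muscle form fell in 28, the other form rose in 21 of these, was not called in 3 and fell too in 4. In the widest pair Myh4 fell by 5.59, while Myh9, nonmuscle myosin heavy chain, measured 10.35 to 11.35 in the tumors (median 11.09) and 8.07 to 8.34 in the muscles (median 8.17) and rose by 2.78 (limma, adjusted p = 7.09e-13). Actn3, fast alpha actinin, ran from 5.15 to 10.15 in tumors (median 7.83) against 12.24 to 12.87 in muscles (median 12.53), a difference of -5.12 ± 0.6 (SE) (limma, adjusted p = 5.05e-07). Its counterpart Actn1 stood at a median of 10.71 in tumors (9.68 to 11.11) and 7.48 in muscles (6.97 to 7.71) and rose by 3.1 (limma, adjusted p = 5.26e-11). For phosphofructokinase, Pfkm fell by 4.17 and Pfkp rose by 2.23 (limma, adjusted p = 9.28e-13 and 1.82e-08).

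Phosphoglycerate mutase showed Pgam2 at -4.99 ± 0.37 (SE) and Pgam1 at 1.33 ± 0.19 (SE) (limma, adjusted p = 6.56e-06 for Pgam1), though a second Pgam1 probe set gave 0.05 ± 0.15 (SE). Tropomodulin showed Tmod4 at -4.64 ± 0.33 (SE) against Tmod3 at 1.58 ± 0.1 (SE) (limma, adjusted p = 1.27e-10 for Tmod3). Myosin light chain kinase showed Mylk2, the skeletal form, at -5.04 ± 0.34 (SE) and Mylk, the smooth muscle and nonmuscle form, at 0.97 ± 0.13 (SE) (limma, adjusted p = 2.67e-10 and 2.62e-06). The pairs in which both forms fell were Ryr1 and Ryr3, Cox7a1 and Cox7a2, Ldha and Ldhb, and Gpd1 and Gpd2. Fabp3, the muscle fatty acid carrier, was the muscle form that was not called, at 0.02, while Fabp5 rose by 1.72 (limma, adjusted p = 6.83e-06). The pairs were listed with earlier results of these data known, so their counts describe these families only.

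**Figure D2:**
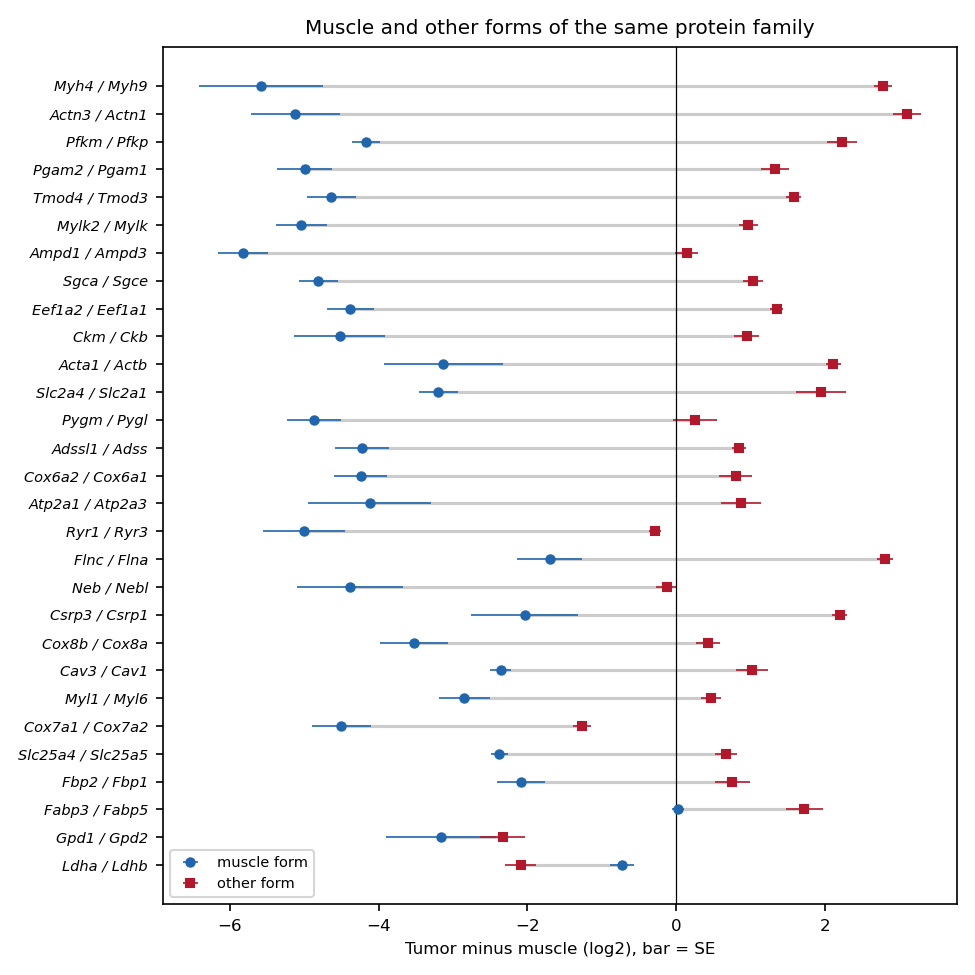
Tumor-minus-muscle difference (log2, horizontal axis) of the muscle form (blue circles) and the other form (red squares) in 29 protein families, 1 family per line, with bars for the SE and a vertical line at 0. The muscle form lies left of the other form in 28 of 29 lines, lactate dehydrogenase being the exception, and the widest gap is that of Myh4 and Myh9.

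The promoters of muscle genes are shown here because the genes fell together and are textbook targets of muscle transcription factors. Promoter windows were the RefSeq sequences from 250 bases before to 50 bases after each annotated start (build GRCm38.p6), searched on both strands. The E-box CAGCTG, of the kind bound by MyoD family factors, was in 4 of 9 windows of fast sarcomere genes (44.4%) and in 16.2% of all 20611 windows of tested genes. The MEF2 sequence, CTA and TAG with 4 bases of any kind between them, was in 10 of 25 windows of scaffold and Z-disc genes (40%) and in 3.67% of all windows. These are matches of letters, and no binding was measured. Windows below are written 5′ to 3′ on the gene's strand, with the motif in capitals: Mylk4 (chr13:32783915-32784214, minus strand) with its E-box, and Ttn, the titin gene (chr2:76982498-76982797, minus strand; difference -4.46), with its MEF2 sequence.
Mylk4: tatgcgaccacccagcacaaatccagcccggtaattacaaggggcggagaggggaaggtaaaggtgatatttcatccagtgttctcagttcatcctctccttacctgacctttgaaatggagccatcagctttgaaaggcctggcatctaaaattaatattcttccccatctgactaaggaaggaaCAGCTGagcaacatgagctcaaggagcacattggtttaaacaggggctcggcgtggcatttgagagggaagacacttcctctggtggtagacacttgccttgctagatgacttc
Ttn: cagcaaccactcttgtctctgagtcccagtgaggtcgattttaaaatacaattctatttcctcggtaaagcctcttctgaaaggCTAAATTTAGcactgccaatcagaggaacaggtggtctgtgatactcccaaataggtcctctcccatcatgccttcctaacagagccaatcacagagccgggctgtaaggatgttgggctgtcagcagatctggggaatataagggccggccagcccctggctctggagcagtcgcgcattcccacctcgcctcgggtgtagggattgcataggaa

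Several microRNA precursors of muscle had probe sets of their own, while Mir1a-2 and Mir486 share theirs and were not analysed here. Mir133a-1 measured 2.67 to 3.43 in the tumors (median 2.96) and 4.62 to 6.28 in the muscles (median 5.95), Mir1a-1 ran from 2.17 to 3.25 in tumors (median 2.46) against 3.83 to 5.92 in muscles (median 5.2), and Mir133a-2 stood at a median of 3.35 in tumors (2.65 to 3.86) and 5.8 in muscles (4.88 to 6.29). All 3 were apart from muscle, with differences of -2.65 ± 0.2 (SE), -2.55 ± 0.25 (SE) and -2.44 ± 0.19 (SE) and dim tumor means, the muscle mean of Mir1a-1 being dim too (limma, adjusted p = 9.43e-10, 5.14e-08 and 2.55e-09). Mir206 and Mir133b, the other muscle microRNA locus, were not called, at -0.11 and -0.06. Mir145a, a smooth muscle microRNA, rose by 1.59 with overlap (limma, adjusted p = 0.00272). Over the whole list 4 of 17 rose and 4 fell (median 0.01), beside 25.3% and 25.7% of all genes. The list mean was 3.52 to 3.97 in tumors and 3.86 to 4.14 in muscles, under the dim limit. A precursor that was not called may therefore not have been detected. With dim genes left out the list median was 1.384. Probe sets read the precursor or its gene, not the mature product that Dicer makes. For Mir1a-1, which was among the precursors that fell, the RefSeq table held only the 5p arm. That arm is shown with its seed (bases 2 to 8) in capitals. The 3p arm and its seed are not shown.
mmu-miR-1a-1-5p: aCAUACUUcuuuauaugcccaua

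Among the genes that rose furthest, endothelial, matrix and inflammatory genes lay side by side. Prnd, which encodes the prion-like protein doppel, measured 9.46 to 11.4 in the tumors (median 10.87) and 4.99 to 5.79 in the muscles (median 5.18). Tumors and muscles were far apart, the muscle mean was dim and the difference was 5.26 ± 0.26 (SE) (limma, adjusted p = 3.9e-12); a second Prnd probe set gave -0.28 ± 0.08 (SE), so its probe sets disagree. Thbs1, the matricellular protein thrombospondin, ran from 10.5 to 12.44 in tumors (median 11.71) against 5.89 to 7.21 in muscles (median 6.58), an increase of 5.12 (limma, adjusted p = 3.65e-12). Mest, an imprinted gene of mesoderm and fetal tissues, stood at a median of 10.99 in tumors (9.999 to 11.9) and 5.95 in muscles (5.8 to 6.42) and rose by 4.87, or 29.2-fold (limma, adjusted p = 2.4e-12). The next were Timp1 (an inhibitor of matrix proteases), Tnc (tenascin), Ppbp (a platelet chemokine), Plvap (the diaphragm protein of fenestrated endothelium), Apln (apelin, an endothelial ligand), Il1b (interleukin 1 beta), Tfpi2 (a protease inhibitor), Serpina3n and Aplnr (the apelin receptor), with differences from 4.61 ± 0.41 (SE) down to 4.04 ± 0.31 (SE).

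**Figure D3:**
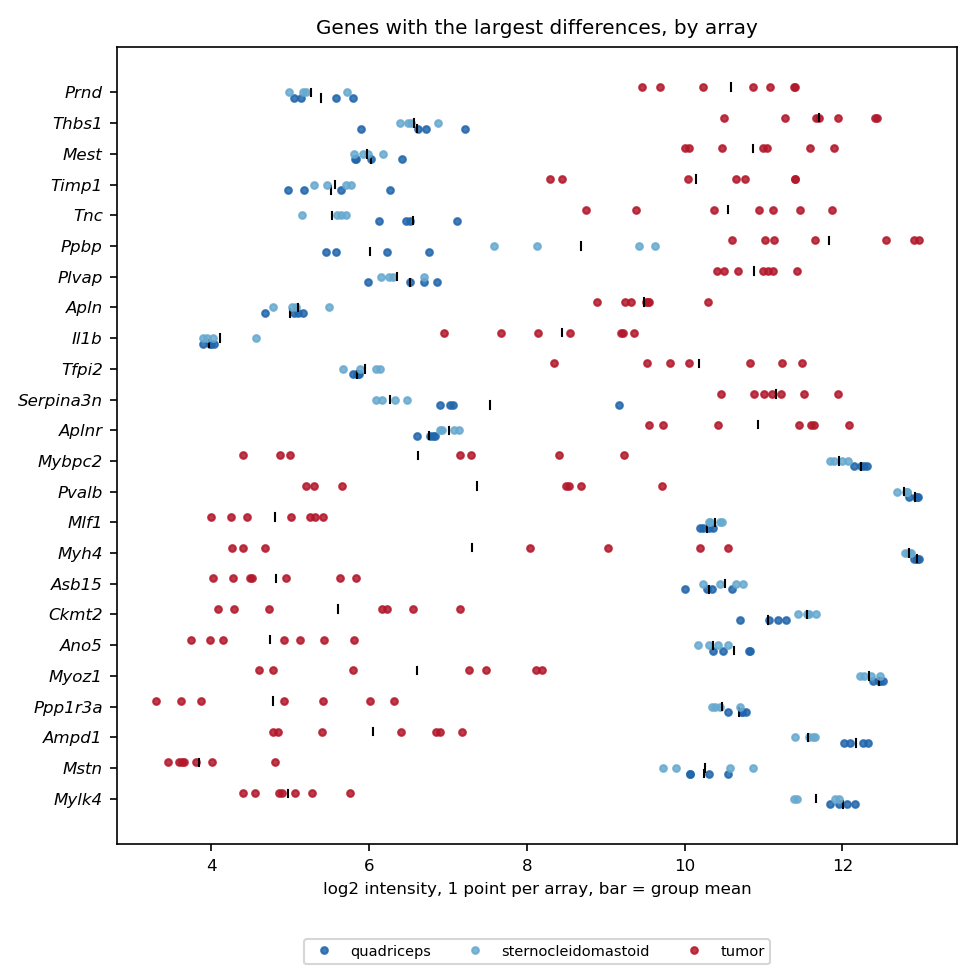
Log2 intensity (horizontal axis) of the 12 genes with the largest increases and the 12 with the largest decreases among genes chosen to have no overlap between tumors and muscles, 1 point per array, in quadriceps (dark blue), sternocleidomastoid (light blue) and tumor (red), with a bar at each group mean. Prnd has the largest increase and Mylk4 the largest decrease, and for Myh4 the tumors spread from 4.26 to 10.55.

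Endothelial genes were higher in nearly every case. In the pan-endothelial list 30 of 31 genes rose, with a median of 2.32, and in 28 the tumors lay wholly above the muscles; Palmd, at 0.32, was not called. Plvap measured 10.41 to 11.43 in the tumors (median 10.99) and 5.98 to 6.85 in the muscles (median 6.41), a difference of 4.45 ± 0.16 (SE) (limma, adjusted p = 6.39e-14). Cd93, an endothelial C-type lectin, rose by 3.2, Cldn5, the endothelial tight junction claudin, by 3.01 and Pecam1, the junction molecule CD31, by 2.85 (limma, adjusted p = 1.37e-12, 6.86e-10 and 1.74e-11). Cdh5, VE-cadherin, ran from 11.55 to 12.3 in tumors (median 11.92) against 9.34 to 9.68 in muscles (median 9.42) and rose by 2.41 (limma, adjusted p = 6.47e-13). Muscle itself holds capillaries, so these increases are above a level that was already present. The list mean ran from 9.04 to 10.05 in tumors, 7.37 to 7.68 in muscles and 7.96 to 8.04 in aortas.

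Genes of sprouting tip cells rose in 18 of 20 cases (median 2.26). Apln stood at a median of 9.51 in tumors (8.89 to 10.3) and 5.06 in muscles (4.68 to 5.5), a difference of 4.43 ± 0.16 (SE) from a dim muscle mean (limma, adjusted p = 6.65e-14). Aplnr measured 9.54 to 12.09 in the tumors (median 11.45) and 6.6 to 7.14 in the muscles (median 6.87) and rose by 4.04 (limma, adjusted p = 1.28e-09). Plaur, the urokinase receptor, rose by 3.69 and Mcam, the adhesion molecule CD146, by 3.36 (limma, adjusted p = 6.99e-10 and 3.61e-12). Esm1, at 1.02, and Rgcc, at -0.21, were not called.

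In the venous and leukocyte adhesion list 10 of 11 genes rose (median 2.14). Apln, which is also in the tip cell list, rose most. Next were Nrp2 (2.6), Ephb4 (2.49), the venous receptor for ephrin-B2, and Bgn (2.47) (limma, adjusted p = 2.68e-10, 4.64e-10 and 1.87e-13). Bgn was also high in aorta, at a mean of 12.09 against 12.50 in tumors. Arterial genes rose in 9 of 13 (median 0.76): the Notch ligands Jag1 and Dll4 by 2.44 and 1.6, the netrin receptor Unc5b by 1.71 and the growth factor Vegfc by 1.56 (limma, adjusted p = 4.65e-11, 2.31e-05, 8.44e-09 and 9.23e-06). Gja5, an arterial connexin, fell by 0.32, and Gja4, Hey2 and Bmx were not called. Lymphatic genes rose in 8 of 11 and fell in 3 (median 1.46). Stab1 and Stab2, scavenger receptors of sinusoidal and lymphatic endothelium, rose by 2.58 and 1.85, and Flt4, the receptor for Vegfc, by 2.47 (limma, adjusted p = 3.96e-11, 6.46e-06 and 1.81e-09). Tbx1, a developmental factor, ran from 6.43 to 6.91 in tumors (median 6.62) against 7.87 to 8.62 in muscles (median 8.3), a fall of 1.62 (limma, adjusted p = 1e-11).

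Capillary and fatty acid handling genes were mixed: 3 of 18 rose and 6 fell, beside 25.3% and 25.7% of all genes, and the median was -0.26, or 0.143 without tumors 2 and 7, an alternative chosen after seeing the data. The list mean was 9.11 in tumor 5 and 8.85 in tumor 6, whose white adipocyte list means of 10.83 and 9.88 were also the highest among tumors, and 6.97 in tumor 7, where the adipocyte mean was 6.59; the part of adipocytes was not tested. Timp4 stood at a median of 4.96 in tumors (3.77 to 8.46) and 8.82 in muscles (8.25 to 9.03); it fell by 3.02 with overlap (limma, adjusted p = 8.75e-05). Aqp1, the water channel of capillaries, measured 7.39 to 8.48 in the tumors (median 7.92) and 9.97 to 10.34 in the muscles (median 10.09), a difference of -2.14 ± 0.14 (SE) (limma, adjusted p = 1.1e-10). Lpl, the lipase that frees fatty acids from lipoproteins, fell by 1.49 (limma, adjusted p = 0.0196), a call lost without tumors 2 and 7 (-0.99, limma adjusted p = 0.12), with tumors 5 to 7 alone (-0.50, limma adjusted p = 0.488) and against quadriceps alone (-1.18, limma adjusted p = 0.134). A second Lpl probe set gave -1.85 ± 0.42 (SE). Fabp5 rose, and Cd36, Gpihbp1 and Pparg were not called.

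In the VEGF and angiopoietin systems the receptors rose and the ligands were mixed. Kdr, the main VEGF receptor of endothelium, ran from 9.73 to 11.2 in tumors (median 10.67) against 7.5 to 8.16 in muscles (median 7.75), a difference of 2.77 ± 0.18 (SE) (limma, adjusted p = 1.31e-10). The receptors Flt4 and Flt1 and the angiopoietin receptor genes Tek and Tie1 differed by 2.47, 1.27, 2.03 and 2.39. Among ligands, Pgf stood at a median of 8.4 in tumors (6.39 to 9.02) and 5.33 in muscles (4.73 to 5.52) and rose by 2.91 (limma, adjusted p = 5.65e-08). Vegfa measured 6.19 to 10.09 in the tumors (median 9.03) and 9.32 to 9.87 in the muscles (median 9.49). It was not called, at -0.76 ± 0.39 (SE) (limma, adjusted p = 0.112). Tumors 2 and 7 held its highest tumor values, 10.02 and 10.09, so leaving them out must lower the tumor mean. Without both, an alternative chosen after seeing the data, the difference was -1.28 (limma adjusted p = 0.00401). Vegfb fell by 1.91, Angpt2 rose by 2.44 and Angpt1 fell by 0.68, giving 11 of 15 higher, 2 lower and a median of 1.55. Without either of those tumors alone Vegfa was also called, at -0.97 without tumor 2 and -0.98 without tumor 7.

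Of 20 Notch pathway genes 14 were higher and 1 lower (median 1.0). Jag1 ran from 9.3 to 9.97 in tumors (median 9.49) against 6.47 to 7.64 in muscles (median 7.16). Nrarp, a target and feedback inhibitor of Notch, rose by 2.25, the endothelial receptor Notch4 by 2.06 and the ligand Dll1 by 1.79 (limma, adjusted p = 3.89e-10, 6.06e-09 and 2.56e-12). A second Dll1 probe set gave -0.09 ± 0.10 (SE). The core factor Rbpj was not called.

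Genes of cell division were higher in every tumor than in the muscles, with few exceptions. All 36 mitosis and G2/M genes rose, with a median of 1.92, and in 35 no tumor overlapped a muscle. Cdk1, the mitotic kinase, stood at a median of 9.5 in tumors (7.84 to 9.9) and 5.27 in muscles (4.44 to 5.54), a difference of 3.88 ± 0.3 (SE) (limma, adjusted p = 1.89e-09). Top2a, the topoisomerase of dividing cells, measured 7.02 to 8.69 in the tumors (median 8.13) and 3.92 to 4.42 in the muscles (median 4.22) and rose by 3.85 (limma, adjusted p = 1.52e-11). Ccna2, cyclin A, and Ube2c, of the anaphase ubiquitin machinery, rose by 3.75 and 3.26 (limma, adjusted p = 8.68e-11 and 1.73e-09). Mki67, the proliferation marker, ran from 7.92 to 9.44 in tumors (median 8.8) against 5.22 to 6.09 in muscles (median 5.59), an increase of 3.26 (limma, adjusted p = 8.98e-11). Muscle means of Cdk1, Top2a and Ccna2 were dim, so these increases may be understated. The list mean was 7.33 to 7.64 in tumors 1 to 4 and 6.44 to 6.87 in tumors 5 to 7, against 4.90 to 5.06 in muscles.

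DNA replication and G1/S genes rose in 30 of 32 cases with a smaller median of 1.0. The helicase subunit Mcm5 stood at a median of 8.07 in tumors (7.16 to 8.69) and 5.63 in muscles (5.5 to 5.94), a difference of 2.28 ± 0.19 (SE) (limma, adjusted p = 4.41e-09). Its partners Mcm6 and Mcm3 rose by 1.98 and 1.64, and Rrm2, of ribonucleotide reductase, by 1.65 (limma, adjusted p = 5.71e-08, 1.09e-08 and 4.63e-08); a second Rrm2 probe set gave -0.04 ± 0.07 (SE). Fen1 and Rrm1 were not called.

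Promoters of these genes are shown because the genes rose together and are textbook targets of cell cycle regulators. The sequence TTTGAA, known as the cell cycle genes homology region, was in 25 of 33 windows of mitosis genes (75.8%) and in 15.4% of all windows; CCAAT was in 25 of 33 (75.8%) and in 37.7% of all. The E2F sequence TTTGGCGC was in 7 of 34 windows of replication genes (20.6%) and in 0.694% of all, and a second E2F form, GGCGGGAA, in 5 of 34 (14.7%) and in 2.87% of all. Cdk1 (chr10:69352863-69353162, minus strand, GRCm38.p6) is shown with TTTGAA or its reverse complement in capitals, and Mcm5 (chr8:75109259-75109558, plus strand) with TTTGGCGC or its reverse complement in capitals.
Cdk1: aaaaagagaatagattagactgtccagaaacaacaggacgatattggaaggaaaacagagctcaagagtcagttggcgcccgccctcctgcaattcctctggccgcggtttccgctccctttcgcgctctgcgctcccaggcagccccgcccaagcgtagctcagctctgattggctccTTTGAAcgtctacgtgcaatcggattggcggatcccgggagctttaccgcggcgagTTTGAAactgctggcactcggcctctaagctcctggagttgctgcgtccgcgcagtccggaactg
Mcm5: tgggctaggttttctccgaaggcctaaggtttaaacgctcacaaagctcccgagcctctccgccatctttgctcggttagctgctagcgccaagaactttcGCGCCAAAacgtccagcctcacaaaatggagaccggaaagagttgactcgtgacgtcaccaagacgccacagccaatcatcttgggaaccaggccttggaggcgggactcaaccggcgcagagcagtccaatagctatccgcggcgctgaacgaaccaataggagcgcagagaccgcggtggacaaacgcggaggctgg

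Inhibitors of the cell cycle and p53 targets were divided (median 0.10). Of 18, 7 were higher and 4 lower, beside 25.3% and 25.7% of all genes. Rbl1, a relative of the retinoblastoma protein, rose by 1.67, Cdkn1a (p21) by 1.53 with overlap, and the stress gene Sesn2 by 1.31, while Ccng1 fell by 1.24 (limma, adjusted p = 6.51e-08, 0.000153, 1.51e-06 and 3.86e-09). Cdkn2a, a tumor suppressor often lost in angiosarcoma, measured 6.07 to 7.11 in the tumors (median 6.32) and 5.8 to 6.44 in the muscles (median 6.2); it was not called (limma, adjusted p = 0.115). Among genes linked to angiosarcoma 13 of 16 rose (median 1.12), led by Kdr, Flt4, Plcg1 (2.04) and Tek (2.03; limma, adjusted p = 1.05e-08 and 6.13e-10). Myc ran from 7.49 to 9.53 in tumors (median 8.87) against 6.88 to 7.65 in muscles (median 7.05); the groups overlapped, and the difference was 1.47 ± 0.26 (SE) (limma, adjusted p = 6.31e-05). Myc and AP-1 factors rose in 13 of 17 cases (median 1.39): the immediate early genes Egr1 by 2.29, Ier2 by 1.72, Ier3 by 1.7 and Atf3 by 1.57 (limma, adjusted p = 7.57e-07, 1.29e-08, 0.000378 and 0.000113), with tumor 2 the highest, at a list mean of 8.77 against 7.54 to 8.04 in the others.

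Of 24 oncofetal genes and let-7 targets 16 were higher and 4 lower (median 0.72). Hmga2, a fetal chromatin protein repressed by let-7, stood at a median of 6.24 in tumors (5.41 to 6.54) and 5.52 in muscles (5.31 to 5.73), a difference of 0.56 ± 0.15 (SE) with overlap (limma, adjusted p = 0.00457). With tumors 5 to 7 alone it was 0.15 and not called (limma adjusted p = 0.439). Igf2bp3 measured 4.81 to 7.25 in the tumors (median 5.3) and 5.01 to 5.49 in the muscles (median 5.18); tumors 2, 3 and 7 lay above the other tumors, and the gene was not called (limma, adjusted p = 0.152). Lin28b, the blocker of let-7 processing, was dim in both groups and differed by -0.23 ± 0.06 (SE) (limma, adjusted p = 0.00321). Ccnd2, cyclin D2, rose by 2.2, while E2f6 and Cdc34 fell by 2.45 and 1.72 (limma, adjusted p = 5.04e-07, 3.82e-11 and 9.47e-10).

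Of 20 microRNA machinery genes 12 rose and 3 fell, beside 25.3% and 25.7% of all genes. Their median was 0.24, or 0.083 with housekeeping centring. Mov10, an RNA helicase, rose by 1.38, the exonuclease Xrn2 by 1.32, Tnrc6a, the Argonaute partner, by 1.0 and Ddx17, a helicase of the microprocessor, by 0.92 (limma, adjusted p = 1.38e-08, 1.37e-08, 2.12e-06 and 1.63e-07). Drosha and Ago4 fell by 0.30 and 0.40. In the imprinted growth network 8 of 18 rose and 2 fell (median 0.64), beside 25.3% and 25.7% of all genes. Peg3 rose by 2.45, Plagl1 by 1.56 (a second probe set gave 0.04 ± 0.10, SE) and Slc38a4, an amino acid transporter, fell by 4.17 (limma, adjusted p = 9.72e-07, 0.00176 and 5.53e-09). Igf2, a fetal growth factor, ran from 6.9 to 10.19 in tumors (median 8.08) against 6.86 to 8.03 in muscles (median 7.26). Its tumor range was wide and it was not called, at 0.8 ± 0.38 (SE) (limma, adjusted p = 0.0878). The highest value was that of tumor 1, and the lowest were those of tumors 4 and 2, at 6.90 and 7.05. Leaving out either low tumor must raise the tumor mean. The gene was then called, at 0.99 without tumor 2 (limma adjusted p = 0.0361) and 1.01 without tumor 4 (limma adjusted p = 0.0298).

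Matrix genes rose strongly. Of the fibrillar collagens and other stromal matrix genes, 19 of 22 were higher (median 2.21), and after Thbs1 came Tnc, which stood at a median of 10.94 in tumors (8.75 to 11.87) and 5.92 in muscles (5.15 to 7.11) (4.52 ± 0.35 (SE); limma, adjusted p = 2.04e-09), Postn (periostin, 3.82) and Col12a1 (3.47; limma, adjusted p = 1.86e-10 and 1.45e-07). Basement membrane genes rose in 12 of 16 (median 1.73): the collagen IV chains Col4a2 and Col4a1 by 3.05 and 3.03, Col18a1 by 2.63 and the vascular laminin Lama4 by 2.61 (limma, adjusted p = 1.21e-12, 3.49e-13, 2.07e-08 and 2.05e-11). Matrix proteases and the plasminogen system rose in 22 of 23 (median 1.7). Timp1 measured 8.29 to 11.4 in the tumors (median 10.66) and 4.97 to 6.27 in the muscles (median 5.55), a difference of 4.61 ± 0.41 (SE) (limma, adjusted p = 1.13e-08). The collagenase Mmp13 and the membrane protease Mmp14 rose by 3.66 and 3.57 (limma, adjusted p = 6.35e-06 and 6.01e-12), Mmp13 with tumors from 5.68 to 10.7.

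Pericyte markers were mostly higher, and smooth muscle and fibroblast markers were mixed. Of 9 pericyte genes 8 were higher and the channel gene Abcc9 was lower (median 0.81), led by Pdgfrb (2.14), Notch3 (1.76), Ndufa4l2 (1.18) and Anpep (1.15; limma, adjusted p = 3.68e-10, 3.73e-06, 1.3e-06 and 3.83e-08). Smooth muscle genes were divided, 12 of 18 higher and 5 lower (median 1.01). Actg2, Cald1 and Acta2, contractile genes of smooth muscle, rose by 3.0, 2.51 and 2.34, and Tpm2, a tropomyosin shared with skeletal muscle, fell by 2.75 (limma, adjusted p = 8.51e-11, 2.99e-13, 3.33e-12 and 1.12e-08). Fibroblast genes rose in 5 of 12 and fell in 2 (median 0.53), beside 25.3% and 25.7% of all genes. The largest were Thy1 at 2.19 ± 0.14 (SE), Mfap5 at 1.9 ± 0.2 (SE), Cd248 at 1.55 ± 0.18 (SE) and Col14a1 at 1.45 ± 0.22 (SE) (limma, adjusted p = 1.89e-10, 1.42e-07, 5.93e-07 and 1.64e-05). Pdgfra, Dpt, Lum and Dcn were not called. Schwann cell genes were mostly not called (median -0.16, with 1 of 9 higher and 3 lower, beside 25.3% and 25.7% of all genes). The largest were Pmp2 at -0.7 ± 0.16 (SE), Pmp22 at 0.51 ± 0.13 (SE), Mal at -0.31 ± 0.1 (SE) and Mag at -0.25 ± 0.10 (SE) (limma, adjusted p = 0.001, 0.00308, 0.0138 and 0.0429). Mag lost its call without any of tumors 1, 3, 4, 5 and 7, at -0.26 to -0.21, and stood at -0.16 against sternocleidomastoid alone (limma adjusted p = 0.291). Against quadriceps alone Pmp2 and Mal were not called, at -0.47 and -0.30 (limma adjusted p = 0.0556 and 0.056), and with tumors 5 to 7 alone Mal was -0.18 (limma adjusted p = 0.234).

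Myeloid and platelet genes rose with the vascular ones. Macrophage and monocyte genes rose in 21 of 22 cases, all 21 without overlap (median 2.25). Clec4d ran from 5.13 to 9.06 in tumors (median 7.24) against 3.71 to 4.21 in muscles (median 3.93), an increase of 3.34 (limma, adjusted p = 3.37e-06). The receptor Lilrb4a, the protease Ctss and Ms4a7 rose by 3.25, 3.12 and 3.05 (limma, adjusted p = 6.4e-10, 3.24e-09 and 8.02e-10). Neutrophil genes rose in 12 of 17 and fell in 1 (median 1.5), led by Il1b, Retnlg (3.04), Csf3r (2.69) and S100a8 (2.26; limma, adjusted p = 0.00116, 2.1e-07 and 0.000123). Retnlg stood at a median of 6.03 in tumors (3.84 to 10.74) and 3.39 in muscles (3.26 to 3.68). Inflammatory cytokines and chemokines rose in 16 of 22 (median 0.85): Il1b measured 6.95 to 9.36 in the tumors (median 8.54) and 3.89 to 4.56 in the muscles (median 3.99) (4.4 ± 0.29 (SE); limma, adjusted p = 1.53e-10), the chemokines Ccl2 and Ccl3 rose by 3.4 and 2.75, and Ptgs2, cyclooxygenase, by 2.8 with overlap (limma, adjusted p = 5.99e-12, 7.9e-07 and 0.00366).

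All 9 platelet and megakaryocyte genes rose (median 2.5), beside 25.3% of all genes. Ppbp ran from 10.6 to 12.97 in tumors (median 11.65) against 5.46 to 9.63 in muscles (median 7.17); tumors lay above every muscle, by 4.49 (limma, adjusted p = 6.41e-08). Its level was 6.0 in quadriceps and 8.69 in sternocleidomastoid on average. Gp9, Itgb3 and Clec1b, platelet surface receptors, rose by 3.65, 3.61 and 2.62 (limma, adjusted p = 1.44e-06, 2.4e-06 and 0.000133). The list mean was 10.31 in tumor 7 and 10.05 in tumor 1, against 7.21 to 8.95 in the others and 5.44 to 6.42 in muscles. Of 6 erythroid genes measured 3 rose (median 0.37): Slc4a1, the red cell anion exchanger, stood at a median of 7.7 in tumors (6.84 to 11.41) and 6.3 in muscles (5.84 to 6.61) (1.8 ± 0.46 (SE); limma, adjusted p = 0.00284), and Car2 and Epb42 rose by 1.47 and 0.72 (limma, adjusted p = 0.0124 and 0.00718). Against sternocleidomastoid alone Car2 was not called, at 1.27 (limma adjusted p = 0.0754). The highest Slc4a1 value was that of tumor 2. How much of these signals comes from blood in the tumor was not tested.

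Lymphocyte genes gave few calls. Beside the counts in this paragraph, 25.3% of all genes were called higher and 25.7% lower. In the T and NK cell list Thy1, which fibroblasts and endothelium also express, was the 1 gene of 16 called (median 0.07), with the T cell receptor genes Cd3d and Cd3e at 0.05 and 0.14. Of 9 B cell genes 0 were called by limma (median 0.18; 3 at an unadjusted p under 0.05); Ighm measured 7.15 to 10.39 in the tumors (median 9.25) and 8.38 to 11.31 in the muscles (median 10.34) and Cd79b ran from 5.4 to 7.37 in tumors (median 6.14) against 4.78 to 5.83 in muscles (median 5.49), with differences of -1.19 ± 0.55 (SE) and 0.84 ± 0.36 (SE) (limma, adjusted p = 0.0802 and 0.061). The other Ighm probe sets, 6 in number, differed in the opposite direction, by 0.52 to 0.93. Cd79b was called without tumor 1, 2 or 3, at 0.93 to 0.99, and Ighm without tumor 4 or 5, at -1.44 and -1.41. With tumor and muscle arrays only, Cd79b was called at the same 0.84 (limma adjusted p = 0.0156), so its call depended on the aortas in the fit. It was also called without aorta 1 or aorta 3, against quadriceps alone (1.135) and with tumors 5 to 7 alone (1.253). Of 9 mast cell genes, Kit (2.44 ± 0.34 (SE)) and Hdc (1.78 ± 0.31 (SE)) rose, Ms4a2 fell by 0.2 (limma, adjusted p = 4.3e-06, 6.03e-05 and 0.0112; Ms4a2 was not called with quantile normalization, against quadriceps alone or with tumors 5 to 7 alone, at -0.14, -0.13 and -0.17), and the mast cell proteases Cpa3, Mcpt4 and Tpsb2 were not called. MHC class II genes rose in 6 of 8 (median 0.64), with H2-Ab1 at 1.84 ± 0.22 (SE), H2-Eb1 at 1.69 ± 0.21 (SE), H2-Aa at 1.64 ± 0.25 (SE) and H2-DMa at 0.85 ± 0.15 (SE) (limma, adjusted p = 5.26e-07, 8.48e-07, 1.48e-05 and 8.5e-05). Interferon response genes rose in 10 of 17 (median 0.40): Rsad2 by 2.99, Oasl2 by 1.53, Bst2 by 1.12 and Stat2 by 0.91 (limma, adjusted p = 3.84e-08, 1.1e-06, 4.78e-06 and 3.31e-05).

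Stress and metabolic programs were mixed. Of 22 hypoxia response genes 9 were higher and 8 lower (median -0.12), beside 25.3% and 25.7% of all genes. Lox, the matrix cross-linker, rose by 3.11, Slc2a1, the glucose transporter, by 1.95 and Adm, adrenomedullin, by 1.92, while Hk2, muscle hexokinase, fell by 2.27 (limma, adjusted p = 1.61e-06, 5.78e-05, 0.000218 and 1.81e-06). A second Slc2a1 probe set gave 0.23 ± 0.11 (SE). The list mean was 9.46 in tumor 2 and 9.14 in tumor 7, against 7.76 to 8.49 in the other tumors and 8.25 to 8.38 in muscles. ER stress and chaperone genes rose in 16 of 21 and fell in 4 (median 0.79), with Pdia3, Atf3 and Hsp90b1 up by 1.7, 1.57 and 1.55 and Chac1, an enzyme that degrades glutathione, down by 2.9 (limma, adjusted p = 5.7e-11, 0.000113, 3.63e-09 and 4.01e-12). Ribosomal protein genes rose in 13 of 24 (median 0.22): Rpl3 by 1.65, Rps19 by 0.71, Rpl19 by 0.54 and Rpl32 by 0.49 (limma, adjusted p = 2.84e-10, 1.21e-05, 3.03e-06 and 0.00108). A second Rpl19 probe set gave 0.03 ± 0.09 (SE), and the other Rpl3 probe sets gave 1.55 ± 0.13 (SE) and 0.24 ± 0.12 (SE).

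Adipocyte genes varied widely among arrays. White adipocyte genes had a median of -1.06, but only 2 of 17 were called: Dgat2, which makes triglyceride, at -1.48 ± 0.54 (SE) and Plin4, a lipid droplet protein, at -1.42 ± 0.55 (SE) (limma, adjusted p = 0.027 and 0.0358). Dgat2 stood at a median of 7.85 in tumors (6.5 to 11.28) and 10.37 in muscles (9.04 to 11.02). Both calls were lost without tumor 1, 2, 3 or 7 or quadriceps 4, Dgat2 then lying at -1.35 to -1.13 and Plin4 at -1.35 to -1.02. With tumors 5 to 7 alone they were -0.46 and -0.48 (limma adjusted p = 0.533 and 0.553) and the list median was 0.250. The muscles' list means ran from 7.92 to 10.12, the highest being quadriceps 4. Beside 25.7% and 25.3% of all genes, brown adipocyte genes fell in 5 of 14 and rose in 1 (median -1.15). Their median was 0.001 against quadriceps alone and -2.19 against sternocleidomastoid alone, and the muscles' list means were 6.34 to 7.28 in quadriceps and 7.59 to 8.54 in sternocleidomastoid. The largest differences were those of Cox7a1 (-4.5 ± 0.4 (SE)) and Cox8b (-3.52 ± 0.46 (SE)), which skeletal muscle also expresses, then Pank1 (-2.07 ± 0.32 (SE)) and Slc27a2 (-1.36 ± 0.32 (SE); limma, adjusted p = 1.18e-08, 1.93e-06, 1.99e-05 and 0.00143). Against quadriceps alone Slc27a2 differed by -0.27 and was not called (limma adjusted p = 0.626), and against sternocleidomastoid alone by -2.46. Heart genes fell in 7 of 14 and rose in 1 (median -0.29), and Actc1, cardiac actin that skeletal muscle also makes, measured 6.9 to 9.27 in the tumors (median 7.64) and 11.11 to 12.61 in the muscles (median 11.79), a difference of -4.19 ± 0.29 (SE) (limma, adjusted p = 4.14e-10). Hcn4, Tbx5 and Tbx20 differed by -0.54 ± 0.12 (SE), -0.47 ± 0.18 (SE) and 0.73 ± 0.19 (SE) (limma, adjusted p = 0.000675, 0.0332 and 0.0033). The Tbx5 call was lost without tumor 2, 3, 4 or 5, among others, at -0.47 to -0.37, and against sternocleidomastoid alone the difference was -0.11 (limma adjusted p = 0.727).

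**Figure D4:**
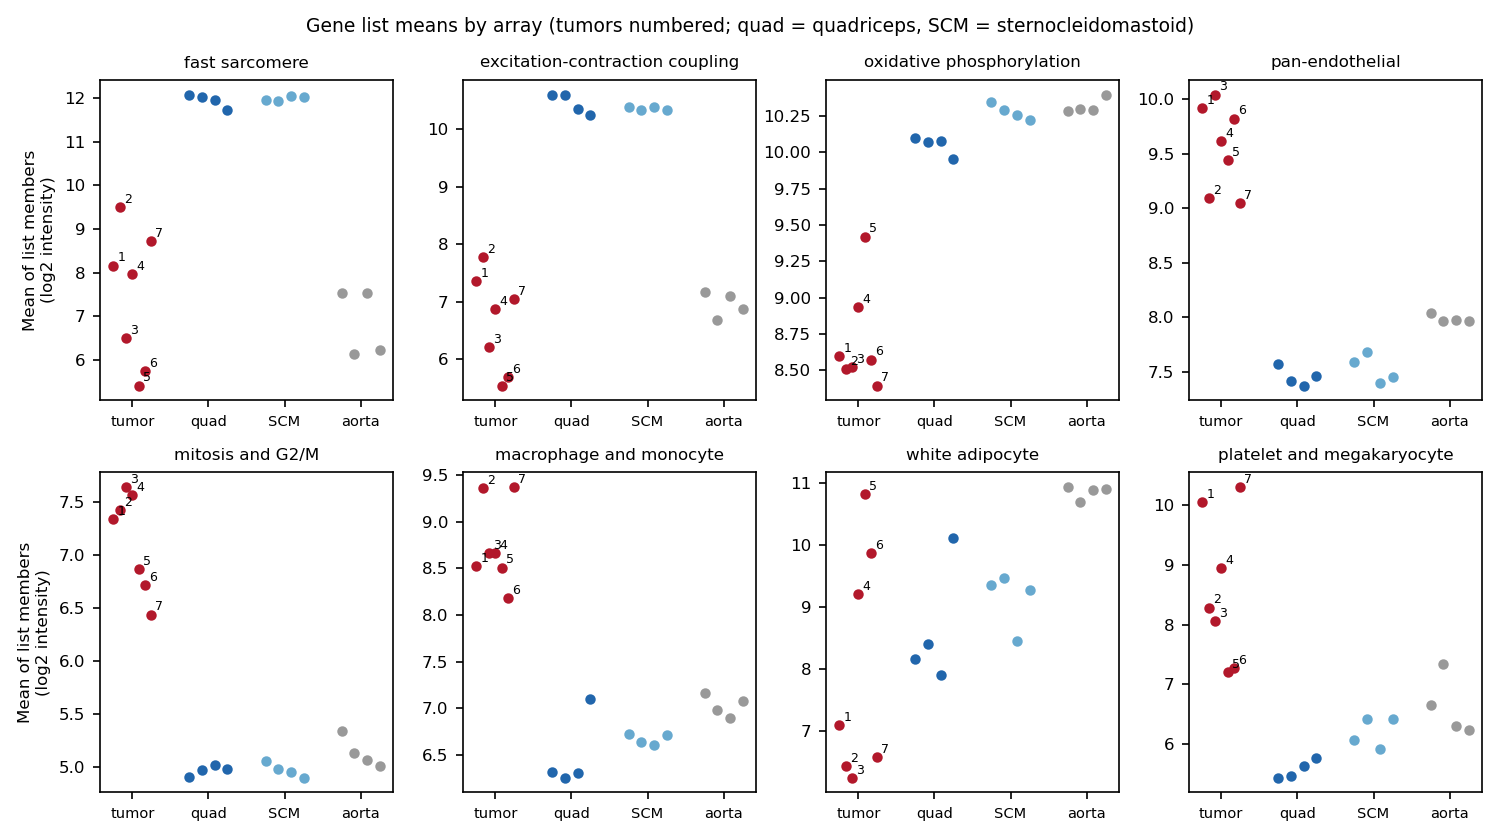
Mean log2 intensity of the members of 8 gene lists (vertical axes, each with its own scale that does not start at 0), 1 point per array, by group; the tumors are numbered 1 to 7. Fast sarcomere means spread from 5.41 to 9.5 among tumors and stay at 11.74 to 12.08 in muscles, while the white adipocyte means of tumors, 6.25 to 10.83, run across the muscle range.

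**Figure D5:**
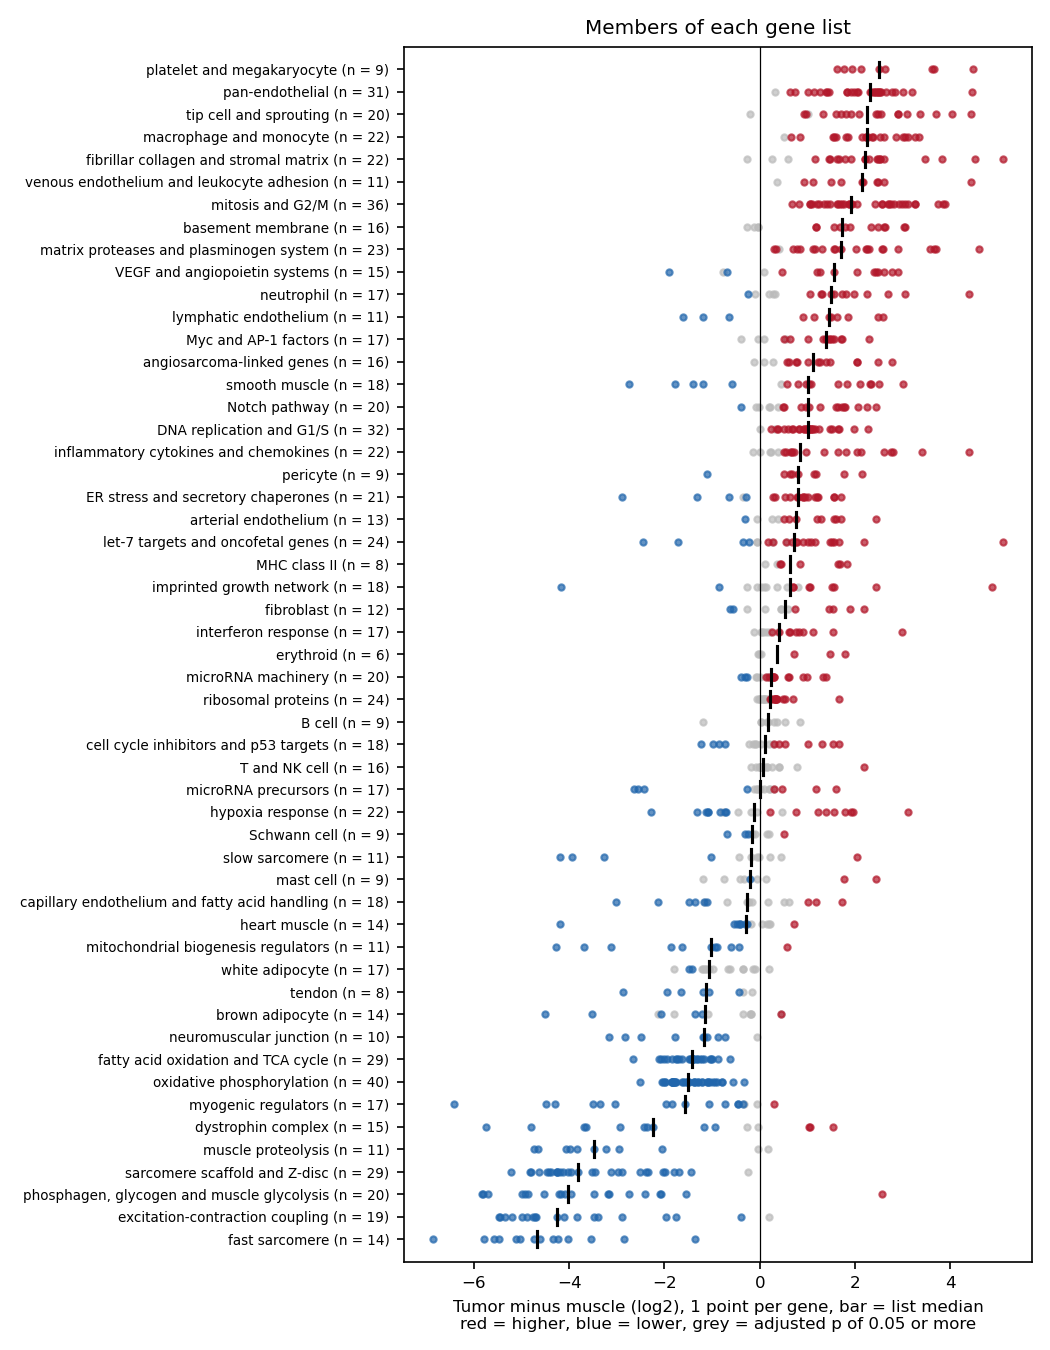
Tumor-minus-muscle difference (log2, horizontal axis) of every measured member of 53 gene lists, 1 point per gene, with the list median as a bar; red genes were called higher, blue lower and grey neither by limma at an adjusted p under 0.05. Muscle lists lie at the bottom, from a median of -4.68 for the fast sarcomere, and platelet and pan-endothelial lists at the top, with medians of 2.5 and 2.32.

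Few genes were called between the 2 muscles, but the brown adipocyte list differed. Its median was 0.001 against quadriceps alone and -2.185 against sternocleidomastoid alone. Whether a gene's difference from tumor was the same in both muscles was tested as sternocleidomastoid minus quadriceps. By limma 96 genes (0.433%) were called, 87 of them also called between tumor and muscle, beside 51.0% of all genes. The estimate of the spread was shared with the tumors, which varied most. Leaving out a quadriceps array gave 60, 52, 63 and 108 calls without quadriceps 1, 2, 3 and 4. Fitting tumor and muscle arrays alone gave 59, and one variance per group gave 219. Of the genes named above, Slc27a2, a fatty acid transporter, was called: the neck muscle was higher by 2.20 (limma adjusted p = 0.0302). A second Slc27a2 probe set gave a tumor-minus-muscle difference of -0.04 ± 0.10 (SE). Chosen after their values were seen, the genes Hoxc10, a positional factor, Aqp4, the water channel of fast fibers, and Prkag3, a muscle AMP kinase subunit, show how large these gaps can be. Hoxc10 was lower in neck than in thigh muscle by 3.54, while Aqp4 was higher there by 1.78; Prkag3 was lower in neck muscle by 1.57 (limma, adjusted p = 1.67e-07, 8.81e-06 and 8.42e-05).

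Aorta served as a second normal tissue, to test whether the tumor's difference depends on which is used. For 7168 genes (32.3%) aorta and muscle differed by limma, so that the tumor's difference from each was not the same: 3772 were higher in aorta (17.0%) and 3396 lower (15.3%). Against aorta, 4131 genes were higher in tumor (18.6%) and 3892 lower (17.5%); both comparisons share the tumors, so they are given side by side. All 14 fast sarcomere genes were lower in aorta than in muscle, and their median tumor-minus-aorta difference was 1.18 against -4.68 for muscle. For oxidative phosphorylation the medians were -1.61 against aorta and -1.5 against muscle, with 39 and 40 of 40 genes lower. The aorta arrays also stood high for the adipocyte and heart lists. Their brown adipocyte means were 9.47 to 9.75, against 5.31 to 7.81 in tumors and 6.34 to 8.54 in muscles. White adipocyte means were 10.71 to 10.95 in aortas and 6.25 to 10.83 in tumors. Heart means were 8.101 to 8.536 in aortas and at most 5.823 in tumors. The part of fat or heart tissue in the tumor-minus-aorta differences was not tested. Pan-endothelial genes stood at 1.7 against aorta (29 of 31 higher) and 2.32 against muscle, mitosis genes at 1.88 and 1.92 (36 of 36 higher in each), and macrophage genes at 1.68 and 2.25 (21 of 22 higher in each). Smooth muscle genes changed side, at -1.04 against aorta and 1.01 against muscle, and Mest was higher than both, by 5.09 and 4.87.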

How the data were processed

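Gene expression was measured on Affymetrix arrays from total RNA, 1 array per sample: 7 tumors, 4 quadriceps, 4 sternocleidomastoid and 4 aortas. The deposited values are log2 intensities per probe set, which the authors produced with Partek 6.6 per the submitters' processing notes; how background and normalization were handled is not stated. The values were used as deposited. Of 41345 probe sets, 23521 carry a single gene symbol, 1814 carry several and 16010 carry none. Each of 22180 genes was represented by its probe set with the highest mean over all 19 arrays; 1082 genes had several, 41 of them with calls in opposite directions.

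Group means were fitted with limma 3.58.1 in R 4.3.3 on all arrays (15 residual degrees of freedom), weighting both muscles equally, with Benjamini-Hochberg adjustment over all genes and a threshold of 0.05. The fit was tested on simulated data. Named genes are the 12 largest increases and decreases, without overlap between groups (predicted and small RNA genes left out), the 4 called members with the largest difference in each list or, where none was called, the 2 largest, a fixed set that includes Dicer1 and Fabp4 (its members Trp53 and H19 were not analysed here), and the 6 widest isoform pairs; others named were chosen after their values were seen. The members and lists were chosen with earlier results of these data known, so list counts and medians describe only those lists; 942 of 1029 listed genes were measured. Over all genes the median difference was -0.04, with 25.3% higher and 25.7% lower. The number of arrays limits the precision. Alternatives were other centrings, quantile normalization, a filter on dim genes, the mean over probe sets, other variance models, other subsets of arrays and each array left out. Tables and plots used Python 3.11.15, pandas 2.3.3 and matplotlib 3.10.9.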

Additional observations from a re-analysis of the deposited data

Results flagged for a closer look

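Dixon's test was run on 822 sets of 4 or 7 arrays for the named genes and the list means, and 64 had a highest or lowest array that stood apart from the rest of its group. Chance gives about 1 in 20. Each value below is the log2 level in that array, followed by the nearest other array of its group.

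Tumor 2 stood above its group for Myod1 (7.02 against 6.21), Mstn (4.80 against 4.0), Musk (7.02 against 5.74), Atf3 (10.73 against 9.13), Adm (9.25 against 7.06), Fmod (7.52 against 6.78), Slc4a1 (11.41 against 8.35), Epb42 (6.54 against 5.17), Myc and AP-1 factors list mean (8.77 against 8.04) and erythroid list mean (7.59 against 6.30). It was the lowest array for Ddx17 (9.81 against 10.31) and microRNA precursors list mean (3.52 against 3.77). The lowest value came from tumor 4 for Peg3 (9.06 against 10.67). Tumor 5 stood above its group for Ndufs1 (9.21 against 8.36), Sdhd (9.54 against 8.80) and Chad (5.96 against 5.8). Tumor 6 stood above its group for smooth muscle list mean (8.74 against 8.08). It was the lowest array for Chrne (4.86 against 4.99). The lowest value came from tumor 7 for Bst2 (6.01 against 6.77) and E2f6 (6.71 against 7.61).

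Quadriceps 1 stood above its group for Actg2 (5.89 against 5.75). Quadriceps 2 stood above its group for Dll4 (6.93 against 6.79). Quadriceps 3 stood above its group for Cox8b (12.15 against 12.03). Its value was the lowest of the group for Chac1 (9.06 against 9.50) and S100a8 (3.08 against 3.72). Quadriceps 4 stood above its group for Fabp4 (12.47 against 11.44), Serpina3n (9.17 against 7.06), Sesn2 (6.24 against 5.46), Hsp90b1 (9.36 against 9.15), Ctss (6.93 against 6.08), Csf3r (5.61 against 5.27), Clec1b (4.37 against 3.97), Dgat2 (11.02 against 9.26), Slc27a2 (6.44 against 5.22), ER stress and secretory chaperones list mean (8.27 against 8.17), macrophage and monocyte list mean (7.10 against 6.31) and neutrophil list mean (4.91 against 4.74). Its value was the lowest of the group for Pgam2 (10.79 against 11.03), Rapsn (7.48 against 8.15), Ndufs1 (9.87 against 10.08), Aqp1 (9.98 against 10.30) and neuromuscular junction list mean (7.02 against 7.32).

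Sternocleidomastoid 1 stood above its group for Hcn4 (5.14 against 4.52). The same array had the lowest value for Rbm24 (9.93 against 10.14), Ucp3 (8.93 against 9.13) and Xrn2 (6.62 against 6.80). Sternocleidomastoid 2 stood above its group for Rbl1 (6.08 against 5.79) and lymphatic endothelium list mean (6.97 against 6.88). The same array had the lowest value for Pvalb (12.69 against 12.81), Ms4a2 (3.62 against 3.84) and ribosomal proteins list mean (8.96 against 9.10). Sternocleidomastoid 3 stood above its group for Dll4 (6.82 against 6.6) and Ccl3 (5.06 against 4.52). The same array had the lowest value for Eci1 (10.51 against 10.82), Cd79b (5.54 against 5.79), Mir133a-1 (5.53 against 5.97), Pfkp (6.25 against 7.32) and Pgam1 (7.87 against 8.61). Sternocleidomastoid 4 stood above its group for Plcg1 (7.83 against 7.63) and ER stress and secretory chaperones list mean (8.33 against 8.26). The same array had the lowest value for Notch4 (7.02 against 7.43), Tpm2 (11.59 against 11.79), Fmod (6.89 against 7.64) and S100a8 (3.38 against 3.61).

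Slc27a2 was the named gene whose difference from tumor was not the same in both muscles: tumor minus quadriceps less tumor minus sternocleidomastoid was 2.20 (limma adjusted p = 0.0302).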

How the results depend on the processing

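Of 221 named genes 213 were called, and 0 of those changed direction under any alternative run. Most were picked for large called differences in these same arrays, so a change of direction was unlikely from the start. Of the called genes, 12 lost their call under at least 1 alternative other than the stricter thresholds. Those thresholds were not passed by 8 (adjusted p under 0.01) and 20 (1 log2 unit). Of 53 lists, 9 had a median that changed sign. The counts of higher and lower genes stayed within 1.5 times of 5617 and 5691 except at a minimum of 1 log2 unit (2140 and 1723) and, for lower genes, with housekeeping centring (9429); leaving out 1 array gave 5435 to 5746 and 5303 to 5697. The muscle-to-muscle count of 96 became 219 with one variance per group, 59 with tumor and muscle arrays only, 49 at an adjusted p under 0.01 and 52 at 1 log2 unit, and ran from 52 to 123 with 1 array left out. The aorta-to-muscle count of 7168 became 1993 at 1 log2 unit and ran from 6234 to 7481 with 1 array left out. Without tumors 2 and 7, an alternative chosen after seeing the data, the 4 counts were 5683, 5537, 103 and 7773. In each case the cause was not tested.

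Uncalled genes that changed sign were Dicer1 (0.106 against sternocleidomastoid alone, 0.076 without tumors 2 and 7), Fabp4 (0.053 with quantile normalization, 0.032 against quadriceps alone, 0.306 without tumors 2 and 7, and -0.320 to 0.166 with 1 array left out, positive only without tumor 7) and Ighm (0.481 as the mean over probe sets). List medians changed sign for slow sarcomere (0.055), hypoxia (0.113) and brown adipocyte (0.001) against quadriceps alone, capillary genes without tumors 2 and 7 (0.143), cell cycle inhibitors (-0.055) and T and NK cells (-0.087) with housekeeping centring, Schwann cells without dim genes (0.176) and white adipocytes with tumors 5 to 7 alone (0.250). The microRNA precursor median was -0.046 and -0.151 with median and housekeeping centring, -0.020 with tumors 5 to 7 alone, and -0.026 to 0.059 with 1 array left out, being -0.003, -0.026 and -0.009 without tumor 3, tumor 4 and quadriceps 1. Vegfa was also called with housekeeping centring (-0.92, limma adjusted p = 0.0484).

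No paired analysis was possible because the labels give no replicate numbers shared between groups. Genes dim in both groups limit what can be seen, and other summaries of the same arrays were not analysed here.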

Other observations

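Some genes outside the lists were chosen after their values were seen and are given as values. Rpl3l, the muscle form of ribosomal protein L3, lay between 5.07 and 6.34 in tumors and between 10.61 and 10.94 in muscles, a difference of -5.15 ± 0.17 (SE; limma adjusted p = 1.89e-14). Its broadly used counterpart Rpl3 lay between 9.27 and 9.90 in tumors and between 7.83 and 8.22 in muscles, and differed by 1.65 ± 0.11 (SE; limma adjusted p = 2.84e-10). Mir1a-1hg, the host transcript of a muscle microRNA, differed by -5.23 ± 0.24 (SE; limma adjusted p = 1.3e-12).

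Of 13 genes of heme and iron handling, also chosen after their values were seen, 12 were measured. In tumor 5 were higher and 2 were lower, beside 25.3% and 25.7% of all genes. These counts describe only the genes chosen. Hmox1, heme oxygenase, lay between 8.28 and 11.6 in tumors and between 6.1 and 7.13 in muscles, an increase of 3.45 ± 0.36 (SE; limma adjusted p = 1.28e-07), with the highest value in tumor 2. The heme-responsive factor Spic, biliverdin reductase Blvrb, the iron exporter Slc40a1 and haptoglobin, Hp, differed by 1.04, 0.93, 0.66 and 1.33 (limma adjusted p = 9.68e-06, 0.00119, 0.0487 and 0.0228), all but Spic with overlap. Tfrc, the transferrin receptor, fell by 2.21 and Hjv, hemojuvelin, by 5.2, both without overlap (limma adjusted p = 3.16e-08 and 8.5e-09).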
